A study of Mus musculus with 17 samples.

Results

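The genes described here encode 8 secreted factors that are commonly linked to tissue repair: Areg, Ereg, Hbegf, Vegfa, Osm, Lif, Tgfb1 and Inhba. They were chosen by gene symbol in the platform annotation of the array, with no threshold on a measured value. Of these, 7 had a probe set that carries their symbol alone, out of 22180 such genes on the array, and the expression of Areg was not analysed here. Ereg was represented by 2 probe sets and the other measured genes by 1 each.

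Gene expression was measured in eosinophils on 17 Affymetrix 1-colour arrays, from mice of both sexes aged 6 to 8 weeks. All groups carried the CC10-IL13Tg transgene, which makes interleukin-13 (IL-13) under the CC10 promoter of airway club cells when doxycycline (Dox) is fed. Knockout mice were CC10-IL13Tg/Pirb-/- and wildtype mice were CC10-IL13Tg/Pirb+/+ littermates. Pirb encodes an inhibitory receptor of myeloid cells. The 6 groups were esophageal eosinophils of knockout mice given Dox for 2 weeks (3 arrays), esophageal eosinophils of wildtype mice given Dox for 2 weeks (3 arrays), marrow eosinophils of knockout mice given Dox (3 arrays), marrow eosinophils of wildtype mice given Dox (3 arrays), marrow eosinophils of knockout mice without Dox (3 arrays) and marrow eosinophils of wildtype mice without Dox (2 arrays, the authors having dropped 1 for weak hybridization). Every group was sorted on surface CD45, Siglec-F and CCR3. The esophagus was digested with collagenase and marrow was passed through a needle, so that tissue and preparation cannot be told apart. No label says whether an array holds 1 animal or a pool, so the spread behind each p-value is that between arrays and may be technical.

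Eosinophils are granulocytes that enter the esophagus in allergic inflammation, where they can release growth factors as well as toxic granule proteins. Amphiregulin, epiregulin and heparin-binding EGF-like growth factor are membrane-bound ligands that proteases release to bind the EGF receptor family and drive epithelial growth. Vascular endothelial growth factor A drives new vessel growth and is induced when oxygen is low. Oncostatin M and leukemia inhibitory factor signal through the shared receptor chain gp130 to STAT3. TGF-beta 1 is stored in a latent form and, once activated, drives matrix production through Smad proteins. The activin A subunit encoded by Inhba acts through related receptors.

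Start-site sequence is shown for 3 of the genes, with both windows available for Vegfa. Vegfa was called higher in esophageal eosinophils of both genotypes, Lif in those of wildtype mice alone, and Tgfb1 in neither. For Lif the genotypes were not shown to differ. Each window is the 250 bases before the annotated start, credited to RefSeq on GRCm38.p6 and read along the gene's strand. Sequences run 5′ to 3′. Capitals mark matches to the motifs named after the sequences.
Vegfa, upstream start, chr17:46032378-46032627, minus strand: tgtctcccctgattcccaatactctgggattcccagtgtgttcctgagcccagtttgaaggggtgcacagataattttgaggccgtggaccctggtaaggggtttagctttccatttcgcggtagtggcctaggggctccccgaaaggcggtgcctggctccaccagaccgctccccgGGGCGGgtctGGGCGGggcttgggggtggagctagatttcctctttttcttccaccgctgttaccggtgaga
Vegfa, downstream start, chr17:46025164-46025413, minus strand: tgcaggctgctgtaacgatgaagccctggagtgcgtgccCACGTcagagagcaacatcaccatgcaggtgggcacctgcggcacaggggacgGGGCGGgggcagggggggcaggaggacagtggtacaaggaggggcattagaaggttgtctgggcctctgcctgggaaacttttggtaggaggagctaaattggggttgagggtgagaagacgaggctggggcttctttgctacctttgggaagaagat
Lif, chr11:4257318-4257567, plus strand: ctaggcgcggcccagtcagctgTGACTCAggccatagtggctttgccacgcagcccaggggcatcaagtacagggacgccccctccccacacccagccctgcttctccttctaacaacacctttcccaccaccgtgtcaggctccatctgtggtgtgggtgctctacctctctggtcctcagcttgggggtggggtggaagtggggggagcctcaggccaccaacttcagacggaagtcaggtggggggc
Tgfb1, chr7:25686752-25687001, plus strand: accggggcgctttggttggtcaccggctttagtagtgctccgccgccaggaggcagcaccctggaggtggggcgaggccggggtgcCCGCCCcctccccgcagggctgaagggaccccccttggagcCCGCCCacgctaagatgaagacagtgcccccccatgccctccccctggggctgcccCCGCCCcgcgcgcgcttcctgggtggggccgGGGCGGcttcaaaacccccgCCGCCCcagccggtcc
Such windows were searched here for 5 of the 8 genes (Vegfa, Lif, Tgfb1, Areg and Inhba), and the other genes were not searched. The motifs searched on both strands were AP-1 (TGANTCA), the cAMP-response element CRE (TGACGTCA), the hypoxia-response core (ACGTG), STAT (TTCNNNGAA), NF-kB, the GC box (GGGCGG) and the TATA box (TATAAA). The upstream Vegfa window held 2 GC boxes, which began at -72 and -62 from the start. The downstream Vegfa window held 1 hypoxia-response core, read on the opposite strand as CACGT, at -211 and 1 GC box at -158. The upstream Vegfa window held 0 hypoxia-response cores. By its coordinates the downstream window lies past the upstream start, inside the gene, so its core is not in front of the upstream start. The Tgfb1 window held 5 GC boxes. The Lif window held 1 AP-1 match, TGACTCA, which began at -228. The Areg window, not printed, held 1 CRE at -61, 1 GC box at -52 and 1 TATA box at -31. The Inhba window, also not printed, held 1 TATA box at -91. Among 32851 windows of the same length, 32.7% held a GC box and 6.75% an AP-1 match. The other shares were 1.55% for CRE, 16.6% for the hypoxia-response core, 7.02% for STAT, 1.21% for NF-kB and 12.4% for the TATA box. A match is a description of these letters and not a site. Lif lies next to Osm on chromosome 11 and Ereg lies next to Areg on chromosome 5, with 0 annotated protein-coding genes between the members of each pair.

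Expression values were used as submitted, on a log scale of unstated base. Base 2 was assumed, and the fold differences below rest on that assumption. Probe sets had been centred before deposit. In 96.95% of them 0 lay midway between a pair of middle values, so levels of different genes cannot be compared. Differences are group means of these values, tested for all genes together in limma with Benjamini-Hochberg adjustment and a threshold of 0.05 on the adjusted p. The standard deviation of an array over all probe sets was 0.25 to 0.30 in marrow and 0.50 to 0.59 in esophagus, apart from the library labelled marrow knockout without Dox replicate 3. That array had a standard deviation of 0.81 and a mean correlation of -0.027 with the other arrays of its group, against 0.38 with esophageal arrays of wildtype mice. It is called the outlying array, and values that it moves are given with and without it where they are compared. Of the sorting markers, Siglecf differed by 1.14 ± 0.16 in esophageal against marrow eosinophils of knockout mice (SE, limma adjusted p = 0.000479), and by 0.32 ± 0.16 in wildtype mice (adjusted p = 0.165). The granule gene Epx, eosinophil peroxidase, was lower, with differences of -3.50 ± 0.41 in knockout mice (adjusted p = 0.000135) and -3.50 ± 0.41 in wildtype mice (adjusted p = 0.000187), and Prg2, major basic protein, was lower with -2.19 ± 0.35 in knockout and -3.53 ± 0.35 in wildtype mice. Ccr3 differed by 1.02 in knockout and 0.64 in wildtype mice and did not pass. Other eosinophil identity genes went both ways in wildtype mice given Dox. Prg3, Ear6 and Cebpe averaged less in the esophagus than in marrow, with Prg3 at -4.52 against 0.71. Il5ra, Alox15, Gata1, Gata2, Adgre1, Itgam, Csf2rb and Csf2rb2 averaged more, with Alox15 at 2.64 against -0.31. Pirb averaged 1.00 ± 0.21 in esophageal arrays of knockout mice and 1.28 ± 0.77 in those of wildtype mice (SD, n = 3 each), and these values overlapped. Whether its probe set lies in the deleted part is not given, so it does not check the genotype labels.

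In esophageal against marrow eosinophils of mice given Dox, Vegfa, Osm and Hbegf were higher in both genotypes, and Lif passed the test in wildtype mice. In knockout mice Vegfa was 3.56-fold, Osm 2.73-fold and Hbegf 1.88-fold higher. In wildtype mice Osm was 2.41-fold, Vegfa 1.80-fold, Hbegf 1.58-fold and Lif 1.44-fold higher. Thus 3 of 7 measured genes were called higher in knockout mice, where 4.5% of all genes were, and 4 of 7 in wildtype mice, where 8.11% of all genes were. Of all genes in wildtype mice, 1799 were higher and 1567 lower, against 803 and 1245 after quantile normalization. None was called lower, against 6.04% of all genes in knockout mice and 7.06% in wildtype mice. The median difference of the 7 genes was 0.21 in knockout and 0.52 in wildtype mice, while that of all genes was 0.060 and 0.14. In bulk samples of sorted cells, more RNA per cell and more cells of a kind cannot be told apart.

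**Figure D1:**
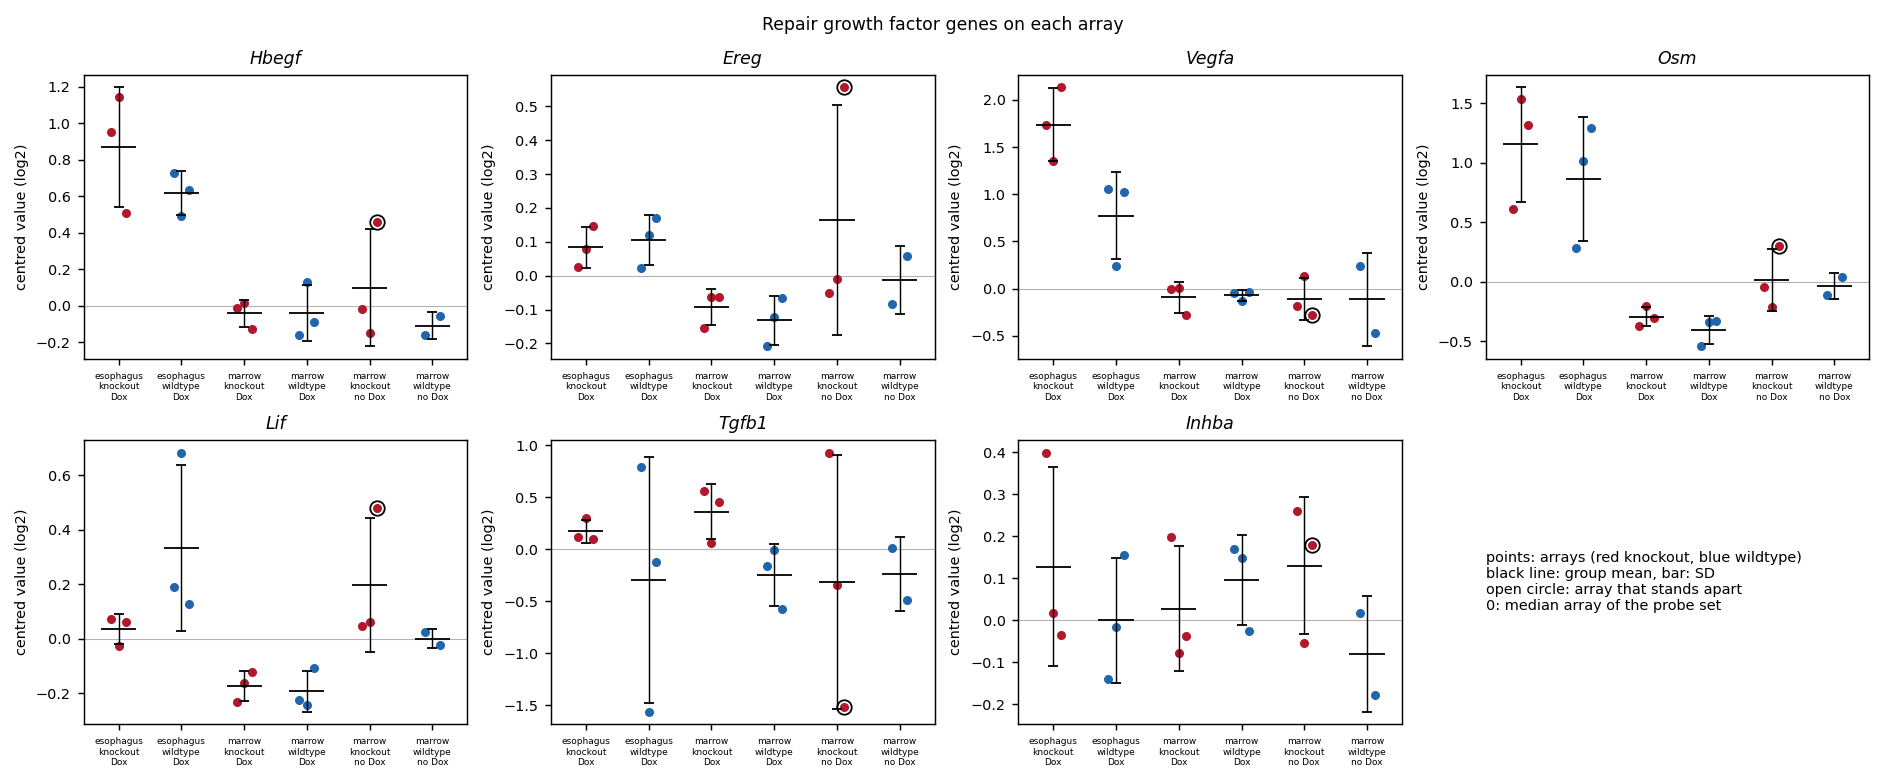
Centred log2 value of each of the 7 measured genes on each array, by group, with the group mean (line) and SD (bar); red points are knockout, blue points wildtype and the open circle marks the outlying array. Vegfa, Osm and Hbegf are higher on the esophageal arrays than on the marrow arrays with Dox in both genotypes, while Tgfb1 and Inhba overlap.

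Hbegf, which encodes heparin-binding EGF-like growth factor, had values of 0.95, 1.14 and 0.51 on the esophageal arrays of knockout mice, against -0.014, 0.014 and -0.13 on their marrow arrays with Dox. In wildtype mice the esophageal arrays had 0.73, 0.49 and 0.63, against -0.16, 0.13 and -0.091 in marrow with Dox. Every esophageal array lay above every marrow array with Dox, as 28% of all genes did in knockout mice and 33% in wildtype mice. The difference was 0.91 ± 0.17 in knockout mice (SE, limma adjusted p = 0.00355) and 0.66 ± 0.17 in wildtype mice (adjusted p = 0.0235). Without Dox, the marrow arrays of knockout mice had -0.019, -0.15 and 0.46, and those of wildtype mice -0.16 and -0.058. The value of 0.46 belongs to the outlying array and lay near the lowest esophageal values. The wildtype call was lost without marrow wildtype Dox replicate 1 (adjusted p = 0.0887), without replicate 3 of that group (0.0644) and without esophageal wildtype replicate 3 (0.0591).

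Ereg, which encodes epiregulin, gave no call with all arrays in the fit. The mean of its 2 probe sets was 0.025, 0.078 and 0.15 on esophageal arrays of knockout mice, against -0.15, -0.063 and -0.062 in marrow with Dox. In wildtype mice it was 0.023, 0.12 and 0.17 in the esophagus, against -0.21, -0.12 and -0.066 in marrow with Dox. The groups did not overlap in either genotype, where 28% of all genes lay wholly above in knockout mice and 33% in wildtype mice. The differences of 0.18 ± 0.13 in knockout mice (SE, limma adjusted p = 0.463) and 0.24 ± 0.13 in wildtype mice (adjusted p = 0.195) did not pass. Without the outlying array, on which Ereg stood at 0.56, the wildtype difference passed with an adjusted p of 0.0167, in a fit that called 25.1% of all genes higher. In knockout mice that fit called 9.75% of all genes higher, and Ereg did not pass (adjusted p = 0.0817). Read alone, the probe set 17439021 had -0.044, 0.10 and 0.32 in the esophagus of knockout mice, against -0.11, 0.035 and 0.017 in their marrow with Dox, and these arrays overlap.

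Vegfa showed the largest difference among the 7 genes in knockout mice. Its values were 1.74, 1.35 and 2.13 on the esophageal arrays of knockout mice, against -0.0055, 0.0055 and -0.28 in marrow with Dox. In wildtype mice they were 1.06, 0.24 and 1.02 in the esophagus, against -0.050, -0.13 and -0.032 in marrow with Dox. All esophageal arrays stood above all marrow arrays with Dox, and esophageal wildtype replicate 2 was the lowest of them. Within a genotype, 28% of all genes lay wholly above in knockout mice and 33% in wildtype mice. The difference was 1.83 ± 0.25 in knockout mice (SE, limma adjusted p = 0.000384) and 0.84 ± 0.25 in wildtype mice (adjusted p = 0.0370). In the whole table, 99.02% of genes had a lower difference than Vegfa in knockout mice and 97.77% in wildtype mice. Without Dox, marrow arrays had -0.19, 0.14 and -0.28 in knockout mice and 0.24 and -0.47 in wildtype mice, and the highest of these came close to the lowest esophageal array of wildtype mice. The wildtype call was lost after quantile normalization between arrays, with a difference of 0.67 and an adjusted p of 0.174, and after median centring, with 0.74 and 0.0815. It was also lost without marrow wildtype Dox replicate 1 (0.0969), 2 (0.0988) or 3 (0.0757), marrow knockout Dox replicate 1 (0.0501), or esophageal wildtype replicate 1 (0.0807) or 3 (0.114).

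Osm encodes oncostatin M, which activates stromal and epithelial cells. Its values were 0.62, 1.53 and 1.32 on the esophageal arrays of knockout mice, against -0.37, -0.20 and -0.31 in marrow with Dox. In wildtype mice they were 0.29, 1.02 and 1.30 in the esophagus, against -0.54, -0.34 and -0.33 in marrow with Dox. Replicate 1 was the lowest esophageal array in each genotype, and every esophageal array still lay above every marrow array with Dox. Within a genotype, 28% of all genes lay wholly above in knockout mice and 33% in wildtype mice. The difference was 1.45 ± 0.25 in knockout mice (SE, limma adjusted p = 0.00233) and 1.27 ± 0.25 in wildtype mice (adjusted p = 0.00654). Marrow arrays without Dox had -0.041, -0.21 and 0.30 in knockout mice and -0.11 and 0.041 in wildtype mice, and the highest of them, the outlying array, reached the lowest esophageal array of wildtype mice. Both Osm calls were kept under all 25 alternative settings, as were those of Vegfa and Hbegf in knockout mice.

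Lif, a gp130 cytokine best known for keeping mouse stem cells undifferentiated, had values of 0.073, -0.029 and 0.060 on esophageal arrays of knockout mice, against -0.23, -0.16 and -0.12 in marrow with Dox. In wildtype mice it had 0.19, 0.68 and 0.13 in the esophagus, against -0.23, -0.25 and -0.11 in marrow with Dox. Neither pair of groups overlapped, where 28% of all genes lay wholly above in knockout mice and 33% in wildtype mice. The wildtype esophageal mean leaned on replicate 2, at 0.68. The difference was 0.21 ± 0.14 in knockout mice (SE, limma adjusted p = 0.421) and 0.52 ± 0.14 in wildtype mice (adjusted p = 0.0264). Without that replicate the wildtype difference was 0.35 with an adjusted p of 0.0846, and without marrow wildtype Dox replicate 1 or 2 the adjusted p was 0.0850 or 0.0801. In marrow without Dox, Lif stood at 0.045, 0.062 and 0.48 in knockout mice and 0.024 and -0.024 in wildtype mice, above every marrow array with Dox. The median over all probe sets was 0.13 on esophageal wildtype replicate 2 and 0.20 on the outlying array, the 2 highest of the 17 arrays, and these arrays also had the 2 highest Lif values. With each array centred on its median over all genes, the wildtype Lif difference was 0.42 (adjusted p = 0.0257), and after quantile normalization it was 0.61 (adjusted p = 0.0134).

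Tgfb1 and Inhba gave no call in any comparison. Tgfb1 had 0.12, 0.30 and 0.0998 on esophageal arrays of knockout mice, against 0.56, 0.061 and 0.45 in marrow with Dox. In wildtype mice the esophageal arrays had 0.79, -1.56 and -0.12, against -0.16, -0.011 and -0.58 in marrow with Dox. These groups overlapped, and the SD of 1.18 within the wildtype esophagus was far wider than the difference. The esophageal minus marrow difference was -0.19 ± 0.57 in knockout mice (SE, limma adjusted p = 0.889) and -0.051 ± 0.57 in wildtype mice (adjusted p = 0.951). Without Dox, Tgfb1 in marrow had 0.93, -0.35 and -1.51 in knockout mice, the last on the outlying array, and 0.011 and -0.49 in wildtype mice. Inhba differed by 0.099 ± 0.13 in knockout mice (adjusted p = 0.717) and by -0.097 ± 0.13 in wildtype mice (adjusted p = 0.589), with overlapping arrays. Over all 17 arrays its values lay between -0.18 and 0.40. The standard error of 0.57 for Tgfb1 compares with 0.25 for Osm and 0.25 for Vegfa.

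For the 3 genes called in both genotypes, the knockout esophagus had the highest of the 6 group means and the wildtype esophagus the next, while the order of the marrow groups differed between genes. Vegfa averaged 1.74 ± 0.39 in the knockout esophagus and 0.77 ± 0.46 in the wildtype esophagus, and the 4 marrow groups followed, between -0.072 and -0.12. In knockout marrow without Dox it was -0.024 with the outlying array left out, against -0.11 with it. Osm averaged 1.16 ± 0.48 in the knockout esophagus and 0.87 ± 0.52 in the wildtype esophagus, which overlap, and then 0.017 and -0.034 in knockout and wildtype marrow without Dox, and -0.29 and -0.40 in knockout and wildtype marrow with Dox. Osm averaged -0.12 in knockout marrow without Dox when the outlying array was left out, below wildtype marrow without Dox. Hbegf averaged 0.87 ± 0.33 in the knockout esophagus and 0.62 ± 0.12 in the wildtype esophagus, which overlap, and between 0.098 and -0.11 in the marrow groups. The 0.098 belongs to knockout marrow without Dox and was -0.083 without the outlying array. Lif differed in order. Its highest mean was 0.33 ± 0.30 in the wildtype esophagus, followed by 0.20 ± 0.25 in knockout marrow without Dox, and 0.035 ± 0.055 in the knockout esophagus. That mean of 0.20 was 0.054 without the outlying array.

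**Figure D2:**
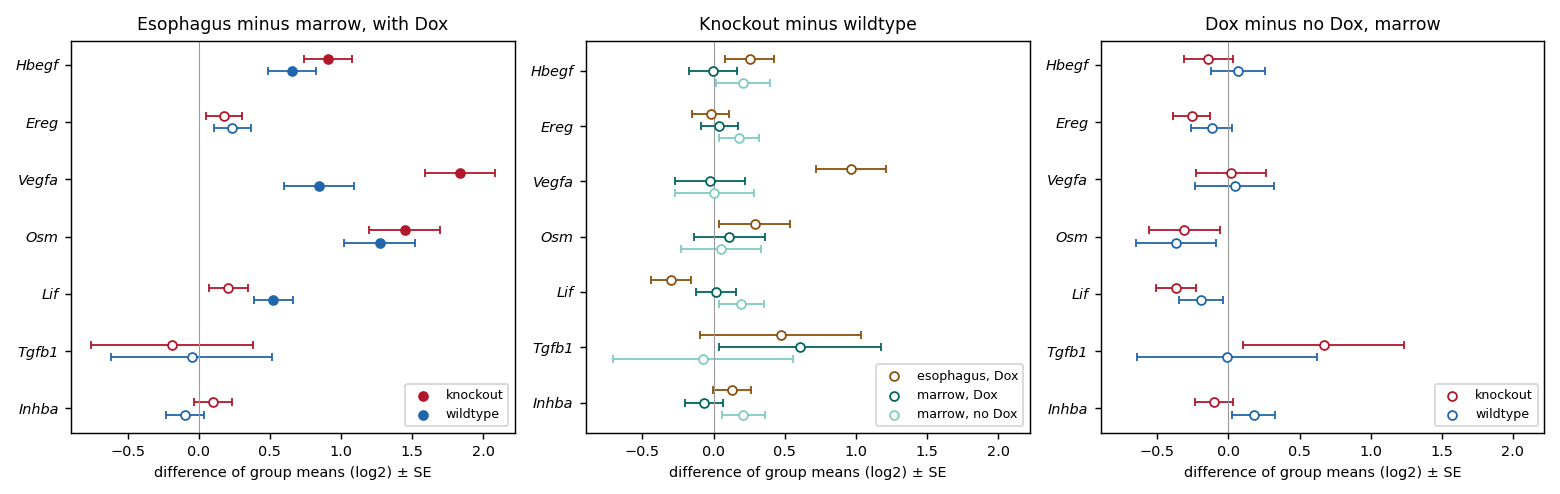
Difference of group means (log2) with its SE for each gene, in esophagus minus marrow with Dox (left), knockout minus wildtype (middle) and Dox minus no Dox in marrow (right); filled points have a limma adjusted p under 0.05 and open points do not. Filled points appear in the left panel alone, for Vegfa, Osm and Hbegf in both genotypes and Lif in wildtype mice.

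The comparison of knockout with wildtype esophageal eosinophils asked what loss of Pirb changed in cells from the IL-13-exposed esophagus. None of the 7 genes passed the test, against 0.347% of all genes, and 1 of them, Vegfa, had an unadjusted p under 0.05. Vegfa had the largest difference of them, 0.97 ± 0.25, which is 1.95-fold (SE, limma unadjusted p = 0.00173, adjusted p = 0.137). Its 3 knockout arrays, at 1.35 to 2.13, all lay above the 3 wildtype arrays, at 0.24 to 1.06. The exact permutation test over these arrays, two-sided, gave p = 0.1, the smallest value that 3 against 3 arrays allow. Groups placed wholly above in this way were found for 5.67% of all genes. Without the outlying array, where 3.44% of all genes passed, the adjusted p for Vegfa was 0.0541, and over all 25 alternatives the difference was between 0.57 and 1.16, with adjusted p-values from 0.0541 to 0.973.

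Lif had the opposite sign in this comparison. Its knockout esophageal arrays, at -0.029 to 0.073, all lay below the wildtype ones, at 0.13 to 0.68, as was the case for 17.6% of all genes. The difference of -0.30 ± 0.14 did not pass (SE, limma adjusted p = 0.345). The remaining genes overlapped between genotypes, with differences of 0.25 ± 0.17 for Hbegf, 0.29 ± 0.25 for Osm, 0.47 ± 0.57 for Tgfb1, 0.13 ± 0.13 for Inhba and -0.021 ± 0.13 for Ereg. Their limma adjusted p-values lay between 0.465 and 0.941.

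Whether the genotype difference itself depended on tissue was tested with an interaction term, which passed for 0.00451% of all genes and for none of the 7. The term was 0.99 ± 0.35 for Vegfa (SE, limma unadjusted p = 0.0139, adjusted p = 0.882) and -0.32 ± 0.20 for Lif (adjusted p = 0.962). Accordingly, the higher Vegfa difference in knockout mice and the Lif call in wildtype mice were not shown to differ between genotypes.

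In marrow no comparison gave a call for these genes. In mice given Dox, 0% of all genes passed between knockout and wildtype marrow in limma, with 407 genes at an unadjusted p under 0.05. Tgfb1 had 0.56, 0.061 and 0.45 in knockout marrow and -0.16, -0.011 and -0.58 in wildtype marrow, groups that did not overlap, as for 4.11% of all genes lying wholly above. Its difference was 0.61 ± 0.57 with a limma adjusted p of 1. The other 6 genes overlapped, with differences from -0.069 for Inhba to 0.11 for Osm. Without Dox, 0% of all genes passed between knockout and wildtype marrow, with 1809 genes at an unadjusted p under 0.05, and the differences of the 7 genes ran from -0.072 for Tgfb1 to 0.21 for Inhba. Lif lay wholly above in knockout marrow, at 0.045 to 0.48 against -0.024 to 0.024 in wildtype marrow, as for 17.6% of all genes. With the outlying array left out, Lif differed by 0.054 in that comparison, against 0.20 with it. Osm then differed by -0.091, against 0.051 with it, and Ereg by -0.017, against 0.18. Hbegf differed by 0.026, Vegfa by 0.092, Inhba by 0.18 and Tgfb1 by 0.53 without it.

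Dox in marrow likewise gave no call for the 7 genes, against 0.0225% of all genes in knockout mice and 0.0225% in wildtype mice. Every marrow array with Dox had a lower Lif value than every marrow array without it, as for 28.1% of all genes in knockout mice and 12.9% in wildtype mice. The difference was -0.37 ± 0.14 in knockout mice (SE, limma adjusted p = 0.156) and -0.19 ± 0.16 in wildtype mice (adjusted p = 1.00). Without the outlying array the knockout difference was -0.23 with an adjusted p of 0.563. Osm differed by -0.31 ± 0.25 in knockout mice (adjusted p = 0.375) and by -0.37 ± 0.28 in wildtype mice (adjusted p = 1.00). The knockout difference of Osm was -0.17 without the outlying array. Its Dox arrays lay wholly below those without Dox in wildtype mice and overlapped in knockout mice. With 3 arrays against 2 the exact test cannot go below 0.2. Ereg differed by -0.26 ± 0.13 in knockout mice (adjusted p = 0.199), with its Dox arrays wholly below, and by -0.062 without the outlying array. The genotype by Dox interaction passed for 0% of all genes, with 1391 at an unadjusted p under 0.05, and for none of the 7.

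Receptors, activators and targets of these factors were then counted in the esophageal against marrow comparison. Of all genes, 4.5% were called higher and 6.04% lower in knockout mice, and 8.11% higher and 7.06% lower in wildtype mice. Of the gp130 list, which holds the other cytokines of Osm and Lif's receptor family with their receptors and feedback genes, 5 of 13 measured genes were called higher and 1 lower in knockout mice, and 7 higher and 1 lower in wildtype mice. Il6, the interleukin of this family, was higher by 3.93 ± 0.57 in knockout mice (SE, limma adjusted p = 0.000678) and by 1.89 ± 0.57 in wildtype mice (adjusted p = 0.0430). Socs3, the feedback inhibitor that gp130 signalling induces, was higher by 1.04 ± 0.13 in knockout mice (adjusted p = 0.000277) and by 1.58 ± 0.13 in wildtype mice (adjusted p = 1.22e-05). Pim1, a kinase induced by STAT3, and Bcl3 were also higher, by 1.68 and 0.95 in knockout mice and by 1.26 and 1.04 in wildtype mice. Il6ra, the receptor of Il6, was lower by a difference of -0.60 in knockout and -0.50 in wildtype mice. The median of the list was 0.47 in knockout and 0.51 in wildtype mice.

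Of the 7 other EGF-family ligands none was called in either genotype. Among 13 genes for ErbB receptors, sheddases and feedback, none was called in knockout mice, and in wildtype mice 1 was called, Erbb4, with 0.44 ± 0.11 (limma adjusted p = 0.0174). Leaving out the outlying array, these counts were 4 higher and 1 lower in knockout mice and 6 higher and 1 lower in wildtype mice, and that fit called 9.75% of all genes higher in knockout mice and 25.1% in wildtype mice. Of 9 other VEGF ligands and receptors, Nrp1, a co-receptor for VEGF, was lower in knockout mice with a difference of -0.68 ± 0.13 (adjusted p = 0.00383) and differed by -0.20 in wildtype mice (adjusted p = 0.249). Of 10 hypoxia-response genes, 2 were higher and 1 lower in knockout mice, and 3 were higher in wildtype mice. Over all genes, 4.5% were higher and 6.04% lower in knockout mice, and 8.11% were higher in wildtype mice. The genes called higher included Slc2a1, a glucose transporter, with 1.43 ± 0.13 in knockout mice and 1.06 ± 0.13 in wildtype mice. Hif1a, the oxygen-regulated transcription factor, was higher by 1.84 ± 0.28 in knockout mice and 1.03 ± 0.28 in wildtype mice. In the wildtype esophagus Egln3, P4ha1, Car9 and Pfkfb3 averaged -0.11, -0.24, -0.18 and 0.010. In wildtype marrow with Dox they averaged more, at 0.81, 0.19, 0.15 and 0.26. The other hypoxia-response genes averaged more in the wildtype esophagus than in that marrow.

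Genes of the TGF-beta pathway were counted by role. With all arrays in the fit, 4.5% of all genes were higher in knockout mice and 8.11% in wildtype mice. Of 8 other ligands, Bmp2 was higher in knockout mice (1.06 ± 0.26, limma adjusted p = 0.0197) and Inha, an inhibin subunit, in wildtype mice (0.46 ± 0.12, adjusted p = 0.0248). Of 11 receptors and Smads, 3 were higher in knockout mice (Smad3 by 1.29, Smad4 by 1.02 and Acvr1b by 0.67) and none in wildtype mice. Of 19 genes for activation, storage and antagonists, 3 were higher in knockout mice and 5 in wildtype mice, and without the outlying array 5 and 13, in a fit that called 9.75% of all genes higher in knockout mice and 25.1% in wildtype mice. Thbs1, thrombospondin 1, which can activate latent TGF-beta, was higher by 5.54 ± 0.23 in knockout mice (adjusted p = 1.04e-08) and 5.43 ± 0.23 in wildtype mice (adjusted p = 1.34e-08). Skil, an antagonist of Smads, was higher by 2.88 in knockout and 2.48 in wildtype mice, and Furin, which cleaves the TGF-beta 1 precursor, by 0.58 in knockout and 0.61 in wildtype mice. Of 8 target genes, 3 were higher in knockout mice and 4 in wildtype mice. Tgm2, transglutaminase 2, was higher by 4.07 in knockout and 3.15 in wildtype mice. Cdkn1a, a cell cycle inhibitor, was higher by 2.66 in knockout and 2.31 in wildtype mice, and Tgfbi, a matrix protein, by 2.04 in knockout and 0.79 in wildtype mice.

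**Figure D3:**
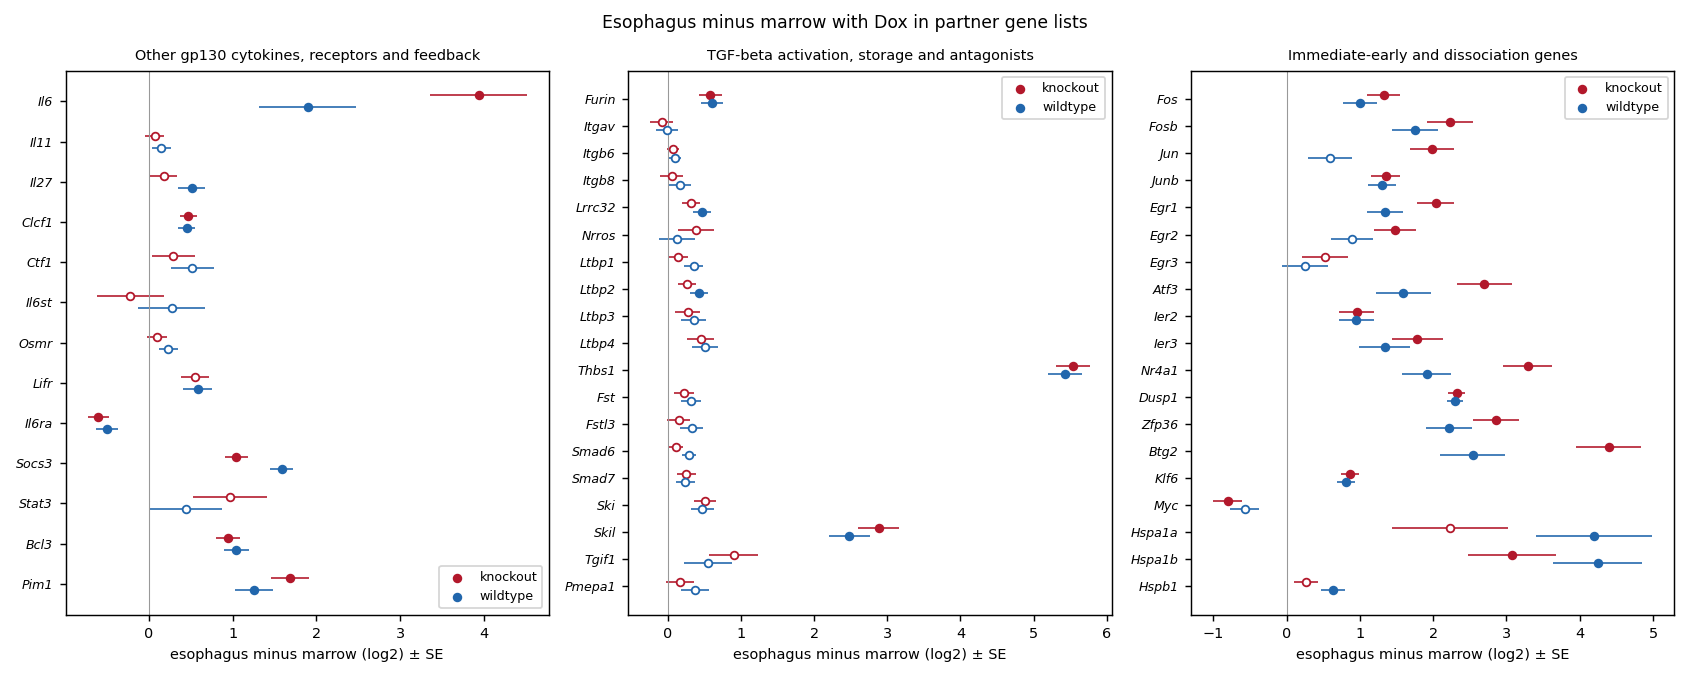
Esophagus minus marrow difference with Dox (log2) with its SE for the measured genes of 3 lists, with knockout in red above wildtype in blue; filled points have a limma adjusted p under 0.05. Il6, Thbs1 and Skil stand far to the right of their lists, and 15 of 19 immediate-early and dissociation genes are higher in each genotype.

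Of 19 other repair and remodelling factors, 7 were higher and 2 lower in knockout mice, and 5 higher and 2 lower in wildtype mice. Without the outlying array these counts were 8 and 3 in knockout mice, where 2163 of all 22180 genes were higher and 2012 lower, and 12 and 2 in wildtype mice, where 5569 were higher and 2523 lower. With all arrays, 4.5% of all genes were higher and 6.04% lower in knockout mice, and 8.11% higher and 7.06% lower in wildtype mice. Il1b, a pro-inflammatory cytokine, was higher by 4.33 ± 0.42 in knockout mice and 4.40 ± 0.42 in wildtype mice. Csf1, a macrophage growth factor, was higher by 3.24 ± 0.22 in knockout mice (limma adjusted p = 1.37e-06) and 1.22 ± 0.22 in wildtype mice (adjusted p = 0.00415). Hgf, a growth factor for epithelium, was higher by 3.09 ± 0.49 in knockout mice (adjusted p = 0.00129) and differed by 1.43 ± 0.49 in wildtype mice (adjusted p = 0.0648). Arg1, arginase 1, differed by 1.27 ± 0.39 in knockout mice (adjusted p = 0.0584) and was higher by 1.64 ± 0.39 in wildtype mice (adjusted p = 0.0169). Igf1, another growth factor, was lower with differences of -1.28 ± 0.29 in knockout mice and -1.73 ± 0.29 in wildtype mice. Retnla, a product of type 2 responses, was higher by 3.68 ± 0.50 in knockout mice and 1.996 ± 0.50 in wildtype mice, and in wildtype marrow it was also higher with Dox by 4.23 ± 0.56 (adjusted p = 0.0289).

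Between knockout and wildtype esophageal eosinophils, 3 genes of all these lists were called: Csf1 was higher by 2.04 ± 0.22 (SE, limma adjusted p = 0.00262), Tgfbi by 1.03 ± 0.18 (adjusted p = 0.0370) and the sorting marker Siglecf by 0.95 ± 0.16 (adjusted p = 0.0259). Tnf, the cytokine tumour necrosis factor, differed by 1.89 ± 0.40 (adjusted p = 0.0708), and Il6 by 2.004 ± 0.57 (adjusted p = 0.182). Socs3 differed by -0.60 ± 0.13 (adjusted p = 0.0848), with a sign opposite to that of Il6. These values share the esophageal arrays with the comparisons against marrow, and they are no separate support for them.

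Of 19 genes known to respond quickly to stimulation or to tissue dissociation, 15 were called higher and 1 lower in esophageal against marrow eosinophils of knockout mice, with a median of 1.98, and 15 higher and 0 lower in wildtype mice, with a median of 1.34. The share of all genes called higher was 4.5% in knockout and 8.11% in wildtype mice. Btg2 was higher by 4.39 in knockout and 2.54 in wildtype mice, and Nr4a1 by 3.29 in knockout and 1.91 in wildtype mice. Dusp1, a phosphatase that limits MAP kinases, was higher by 2.32 in knockout and 2.30 in wildtype mice. The heat-shock gene Hspa1b was higher by 3.08 in knockout and 4.25 in wildtype mice. The mean of the list on an array was 1.505 to 1.71 in the knockout esophagus and 0.90 to 1.66 in the wildtype esophagus, against -0.28 to -0.21 in knockout marrow and -0.32 to -0.13 in wildtype marrow with Dox. Its part in the differences of Hbegf, Vegfa, Osm and Lif was not tested.

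Markers of other cells that a sorted fraction can hold were counted in the same way. They stand beside 4.5% of all genes higher and 6.04% lower in knockout mice. In wildtype mice these shares were 8.11% and 7.06%. Of 14 neutrophil markers, 10 were lower and 1, Retnlg, was higher in each genotype. Camp, a neutrophil granule protein, had differences of -6.20 ± 0.94 in knockout mice and -6.33 ± 0.94 in wildtype mice. Their array means were -2.22 to -2.04 in the knockout esophagus and -2.99 to -2.24 in the wildtype esophagus, against -0.080 to 0.33 in knockout marrow and 0.14 to 0.38 in wildtype marrow with Dox. Of 15 macrophage and monocyte markers, 9 were lower and 1, Cd14, was higher in knockout mice, and 4 were lower and 1, Cd14, higher in wildtype mice. Of 9 dendritic cell markers, 3 were higher in each genotype, namely Itgax, H2-Ab1 and Cd209a. Of 11 epithelial markers, Krt13 was higher in knockout mice and Cdh1 lower in wildtype mice. Of 10 fibroblast and endothelial markers, 3 were higher in knockout mice and 1 in wildtype mice. Of 10 mast cell and basophil markers, 4 were lower in each genotype, and of 10 lymphocyte markers none was called. With centred values a marker at or near 0 signal cannot be recognised, and the part of these cells in the results was not tested.

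The genes most like each called gene were listed by Pearson correlation over the 17 arrays, as a description. Csf1 was closest to Vegfa, with r = 0.956, followed by Cd80, a co-stimulatory ligand, with 0.948 and Emilin2 with 0.944. Within the 6 esophageal arrays r between Vegfa and Csf1 was 0.904, and within the 10 marrow arrays other than the outlying one it was 0.584. For Osm the closest genes were Basp1 (0.944), G0s2 (0.935) and Jund (0.934), a member of the AP-1 family. For Hbegf they were Sipa1l2 (0.963), 4932438H23Rik (0.958) and Mylk (0.953), the myosin light chain kinase. For Lif they were C230014O12Rik (0.968), 4930593C16Rik (0.958) and Kcnmb4 (0.955), a potassium channel subunit. The genes listed for Vegfa, Osm and Hbegf were all less alike to them within marrow, with r from -0.098 (Osm and G0s2) to 0.584. Within the esophagus these r were 0.763 to 0.963. Hbegf and Sipa1l2 had r = 0.205 within marrow and 0.963 within the esophagus, and Osm and Jund had 0.259 within marrow. The genes listed for Lif had 0.773 to 0.883 within marrow. Osm and Hbegf, at 0.836 over all arrays, had 0.055 within the esophagus. Lif and C230014O12Rik kept 0.994 within the esophagus and 0.773 within marrow, on arrays where the median over all probe sets differed.

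**Figure D4:**
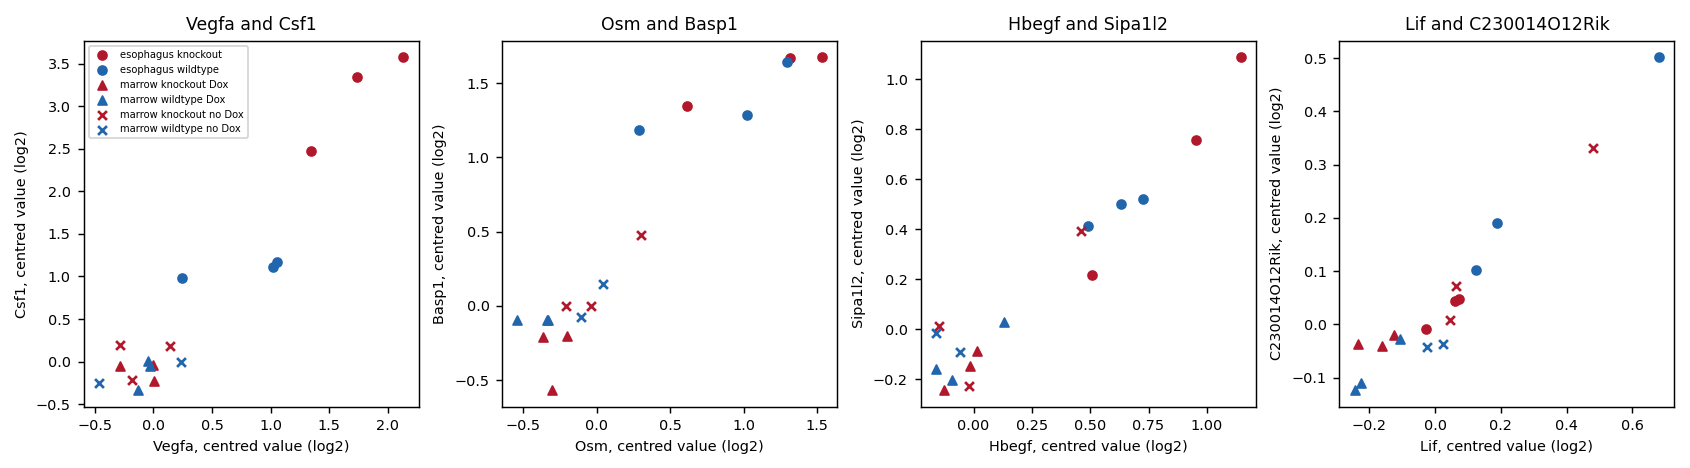
Centred log2 values of Vegfa, Osm, Hbegf and Lif (horizontal) against the gene most like each (vertical) on the 17 arrays; circles are esophagus, triangles marrow with Dox and crosses marrow without Dox, with knockout in red and wildtype in blue. Esophageal arrays sit at the upper right for Vegfa, Osm and Hbegf, and for Lif 1 wildtype esophageal array and the outlying marrow array are the 2 highest.

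The esophagus minus marrow comparison was repeated under 25 alternative settings. Vegfa, Osm and Hbegf were called in 25 of 25 settings in knockout mice. In wildtype mice Osm was called in 25, Hbegf in 22, Lif in 20, Vegfa in 15 and Ereg in 2. The highest adjusted p for Osm in wildtype mice was 0.0332 and that for Vegfa 0.174.

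**Figure D5:**
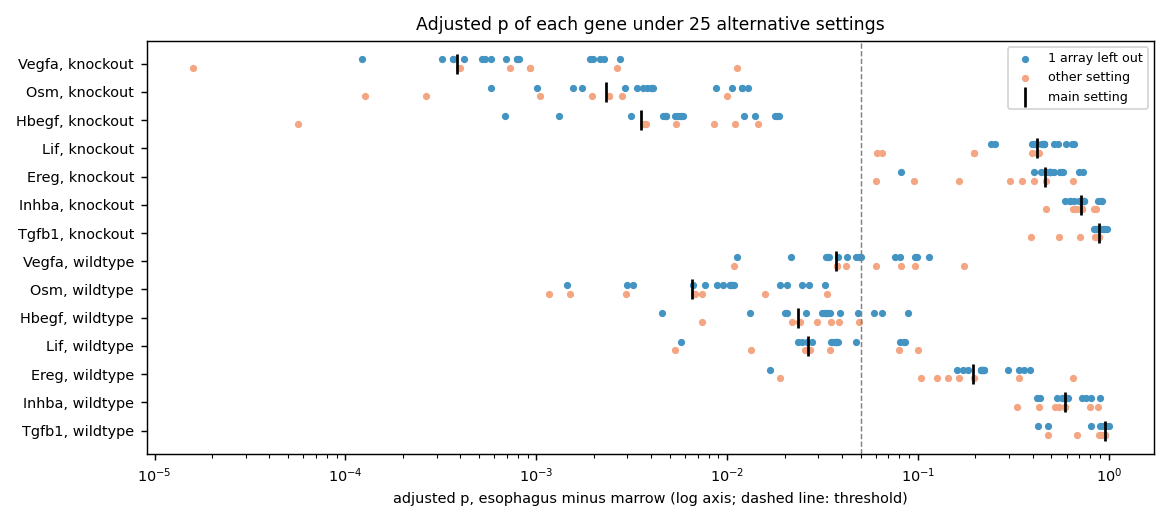
Limma adjusted p (log axis) of the esophagus minus marrow difference for each gene and genotype under the main setting (black bar), 17 settings with 1 array left out (blue) and 8 other settings (orange); the dashed line is the threshold of 0.05. All points of Vegfa, Osm and Hbegf in knockout mice and of Osm in wildtype mice lie left of the line.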

How the data were processed

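Expression was measured on 17 Affymetrix 1-colour arrays of sorted mouse eosinophils. The authors deposited 1 log value per probe set and array for 33793 probe sets, taken here as log2, since no source used here states the base. The submitters' processing notes name Affymetrix Expression Console, with no version. In 96.95% of probe sets the middle values were equal and opposite within 2e-05, so values had been centred per probe set before deposit. Centring leaves group differences unchanged and removes brightness, so no filter on dim probes could be used. How the authors normalized between arrays is unstated in these sources.

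Probe sets with 1 symbol in the platform annotation (23521, of which 23328 matched by Entrez identifier) gave 22180 genes, and the mean was used for the 1082 genes with several. A further 1814 probe sets had several symbols and 8458 had none. All genes and 17 arrays entered a linear model of the 6 groups (limma 3.58.1 under R 4.3.3), moderated by eBayes, two-sided, with Benjamini-Hochberg adjustment over all genes of a comparison and a threshold of 0.05. The script was tested on simulated data. Groups came from the sample titles. Single genes were also compared by exact permutation of arrays between 2 groups. Named genes were all 8 chosen genes, at most 5 called genes of a list by size of difference, the 3 genes with the highest correlation, and Pirb, Siglecf, Ccr3, Epx and Prg2 as checks. Uncalled genes outside this rule (Tnf, and Il6 and Socs3 between genotypes) were chosen after their values were seen. The genes and lists were chosen with earlier results of these data known. The number of arrays limits the precision. Alternatives covered scaling, the arrays fitted, array weights, robust moderation, probe set choice, a replicate block, a Y-linked covariate and leaving out each array.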

Additional observations from a re-analysis of the deposited data

How the results depend on the processing

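Under 25 alternatives (17 leaving out 1 array each and 8 other settings), 1554 of 1575 recomputed gene differences kept their side of the threshold and their direction where called, 18 lost a call, 3 gained one and 0 reversed. Most of the 1575 were uncalled in the main setting, so the pooled count says little about the calls. All 18 losses fell on Vegfa, Lif and Hbegf in wildtype esophagus against marrow, called in 15, 20 and 22 of 25. The count of genes called in wildtype esophagus against marrow, 4, became 2 with only the groups compared in the fit and 2 with the Y-linked covariate, and ranged from 1 to 5 with 1 array left out. It was 1 without marrow wildtype Dox replicate 1 and 2 without replicate 2 or 3 of that group or without esophageal wildtype replicate 3. With array weights 1 gene, Lif, was called between Dox and no Dox in knockout marrow, with a difference of -0.24 and an adjusted p of 0.0363. Vegfa in wildtype mice had adjusted p-values of 0.0604 with only the groups compared, 0.0964 with the Y-linked covariate, and 0.0501 to 0.114 in the 6 settings without 1 array that lost its call. Lif in wildtype mice had 0.0799 with only the groups compared and a difference of 0.40 that missed the threshold with the covariate, and 0.0850 and 0.0801 without marrow wildtype Dox replicates 1 and 2, and 0.0846 without esophageal wildtype replicate 2. Hbegf had 0.0887 and 0.0644 without marrow wildtype Dox replicates 1 and 3, and 0.0591 without esophageal wildtype replicate 3. Ereg gained a call with array weights (0.0190) and without the outlying array (0.0167). Causes were not tested.

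The replicate block left the counts at 3 in knockout and 4 in wildtype mice, with adjusted p-values of 0.0418 for Vegfa and 0.0345 for Lif in wildtype mice. No label ties the numbers to a shared animal. Deviations of same-numbered arrays correlated at -0.0999 to 0.231 over 40 pairs (median 0.0352), with 11 of the 40 over 0.1. Those of differently numbered arrays correlated at -0.233 to 0.21 over 80 pairs (median -0.0217), with 9 of the 80 over 0.1. In the absence of a label the numbers were not taken to pair the arrays, and these correlations do not settle whether they do.

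Over all genes, 997 were higher and 1339 lower in knockout esophagus against marrow, 1127 and 1583 after quantile normalization, 1001 and 1356 after median centring, and 2163 and 2012 without the outlying array. In wildtype mice these were 1799 and 1567, 803 and 1245, 1181 and 1738, and 5569 and 2523. Between genotypes in the esophagus they were 69 and 8, 2 and 0, 96 and 6, and 389 and 374. Median centring moved the median difference of all genes in wildtype mice to 0.032, against 0.14.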
